A study of Rattus norvegicus with 6 samples.

Results

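Cytosolic ribosomal protein genes encode the proteins of the large (Rpl) and small (Rps) subunits of the ribosome that translates nuclear messenger RNAs. Members were all probe sets whose single gene symbol in the platform annotation is Rpl or Rps followed by a number, with Rplp0 and Rpsa, and without the Rps6k kinases and pseudogenes. There were 55 such probe sets among the 31099 on the array, for 48 of 14218 genes with a probe set of their own. By symbol 33 were counted to the large (Rpl) and 15 to the small (Rps) subunit. A further 30 probe sets carried several symbols, each of a ribosomal protein gene or a copy of one, and were kept apart because their signal cannot be given to 1 gene.

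Every ribosome needs 1 copy or a few of each ribosomal protein, and dividing cells spend a large part of their transcription and translation on them. Their messenger RNAs typically begin with a C followed by a run of pyrimidines (C or T), the terminal oligopyrimidine (TOP) tract, through which mTOR signalling adjusts their translation. An array measures the amount of these transcripts and not their translation.

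The cells were cortical neuronal progenitor cells of rat embryos at E15.5, grown on fibronectin-coated dishes with 20 ng/ml of the mitogen bFGF, which both groups received. Cells were exposed for 48 h either to 1 µM of the rodent glucocorticoid corticosterone (3 samples) or to the vehicle DMSO (3 samples), and the series pairs these RNA samples into 3 couples. The labels name no strain or sex and do not say whether couples came from separate litters or cultures. What the p-values capture is thus no more than the spread between these couples, which may be technical.

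Values are linear signals per probe set on 1 Affymetrix array per sample. Progenitor markers ranged widely in brightness over the 6 arrays. Sox2 had signals from 7528 to 9935 and Vim from 20453 to 29876, while Pax6 (791 to 1173), Hes1 (376 to 739) and Prom1 (363 to 578) were dimmer. Some genes on the lists for other cell types were bright too, such as Olig1 (15022 to 20513) and Slc1a3 (10848 to 19279). Whether the progenitors themselves or other cells expressed these genes was not tested. Of the endothelial markers 0 of 5, and of the microglial markers 2 of 6, passed the filter on low signals. Some markers moved with the treatment. Of those tested, 3 of 4 astrocyte markers, 3 of 5 meningeal, pericyte and fibroblast markers and 1 of 7 progenitor markers (Nes, by 0.26, limma adjusted p = 0.019) rose. Falls were seen for 1 of 4 oligodendrocyte lineage markers (Pdgfra, by −1.64, 2.9e-05) and 1 of 6 neuron markers (Tubb3, by −0.52, 0.034). Over all 9910 genes tested 11.7% rose and 7.77% fell. The summed signal of the progenitor list was 55212 to 66803 with vehicle and 60671 to 67412 with corticosterone. The summed signal of the astrocyte list was 15844 to 22306 with vehicle and 28434 to 33161 with corticosterone, and that of the meningeal list 375 to 1791 and 845 to 3609. Col1a1, Col1a2 and Col3a1 of the meningeal list were highest in couple 2 in both groups. Col3a1 was at 577 and 928 there, against 40.8 to 94.1 in couples 1 and 3. The sums were 19956 to 24470 and 16681 to 23040 for the oligodendrocyte list, and 10166 to 11031 and 7501 to 11025 for the neuron list. For the microglial list they were 201 to 218 and 259 to 277, from dim genes. Aif1 and Cd68, the microglial genes tested, did not pass (limma adjusted p of 0.74 and 0.93). Their part in the results below was not tested. In such bulk samples fewer cells of a type and less RNA per cell cannot be told apart.

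Start sites of 41 of the 48 member genes were found in the RefSeq annotation of the rat genome build GRCr8. Shown are 70 bases, from 40 before to 30 after the annotated start, of the genes that changed and of the reference members Rplp0, Rpsa and Rps6, with the longest C and T run near the start in capitals.
Rpl39: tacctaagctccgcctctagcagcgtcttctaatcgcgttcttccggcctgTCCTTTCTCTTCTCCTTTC
Rpl7l1: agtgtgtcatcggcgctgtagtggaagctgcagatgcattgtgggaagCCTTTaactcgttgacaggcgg
Rpl21: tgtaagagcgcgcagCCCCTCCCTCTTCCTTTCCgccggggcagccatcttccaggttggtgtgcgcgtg
Rplp0: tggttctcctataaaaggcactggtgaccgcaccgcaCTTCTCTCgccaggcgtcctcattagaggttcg
Rpsa: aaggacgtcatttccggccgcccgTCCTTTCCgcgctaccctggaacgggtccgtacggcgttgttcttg
Rps6: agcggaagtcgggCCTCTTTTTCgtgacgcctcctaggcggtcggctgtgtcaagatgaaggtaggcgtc
They lie at chrX:121195867-121195936 (minus strand) for Rpl39, chr9:21695678-21695747 (plus) for Rpl7l1, chr12:13386124-13386193 (minus) for Rpl21, chr12:46718361-46718430 (minus) for Rplp0, chr8:128728839-128728908 (plus) for Rpsa and chr5:106420511-106420580 (minus) for Rps6.

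The longest run spanned the annotated start itself in Rplp0, whose 8 bases reached from 3 before to base 5 of the transcript. In Rpl21 the 19 bases lay before it, and in Rpl39 the longest run began at base 12 and went on to 23 bases, past the stretch shown. Shorter runs, not in capitals, spanned the annotated start in Rpl39 (ttcttcc, of which cttcc begins the transcript) and in Rpsa (ccct). Rpl7l1, a paralogue of Rpl7, had no run longer than 5 bases there. Over the 41 members the longest run touching the 20 bases on either side of the start had a median of 10 bases, against 5 over all 33469 promoters, and was at least 8 bases long in 28 of them (68.3%, against 21% of all). The letters CTTTCC, on either strand in that stretch, were found in 11 members (26.8%, against 3.48% of all promoters). The letters CCGGAA, which an ETS factor site can hold, were found on either strand of the 300 bases around the start in 16 members (39%, against 15%), and the motifs can overlap. A match is a description of the letters and does not show that a factor binds.

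The ribosomal protein transcripts were among the brightest on the arrays. Member probe sets took 28 of the first 100 places by mean log2 signal over all arrays, and 39 of the first 250. Together the 55 probe sets held 3.33% of the summed signal in the vehicle sample of couple 1, 3.57% in that of couple 2 and 3.79% in that of couple 3. With corticosterone the shares were 3.44%, 3.42% and 3.65%. The groups overlapped, with a higher share under corticosterone in couple 1 and a lower one in couples 2 and 3.

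The signals of member genes fell into separate ranges. Each gene was represented by its probe set with the highest mean log2 signal, and 45 of the 48 genes lay above the filter that removed the dimmest 40% of probe sets. Among these, 38 had a mean log2 signal of 13.83 or more and 7 one of 11.60 or less, so 13 was taken as the border after the values were seen. Over the 38 bright genes the median signal by couple was 17741, 19300 and 21338 with vehicle, and under the hormone 18639, 18545 and 20131. The brightest 5 were Rps29, Rps23, Rpl26, Rpl3 and Rpl7a. The dimmest 5 were Rps4y2, Rps13, Rpl26l1, Rpl28 and Rpl39. Signals of different probe sets depend on their probes, so this order is not one of transcript amounts. Rpl30, Rpl39l1 and Rpl3l lay below the filter, with signals of 36.8 to 69.1, 6.56 to 42.2 and 10.1 to 60.7, and were not tested.

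With the deposited scaling, few ribosomal protein genes passed the test between corticosterone and vehicle, and the count depended on that scaling. Of the 45 genes tested, 3 fell, 0 rose and 42 did not pass a limma adjusted p under 0.05, so 6.67% were called. Among all 9910 genes tested 19.5% were called, 11.7% higher and 7.77% lower, and the share of members that fell was thus close to the background for falls. At an unadjusted p under 0.05, 0 of the 45 members were higher and 6 lower, against 1862 and 1641 of the 9910 genes. The fit had treatment and couple as terms, and without the couple 0 members passed in limma, with 3 at an unadjusted p under 0.05 (over the whole array 2.24% of probe sets passed then). With each array centred on its median, 15 of the 45 genes fell and 0 rose, with 30 at an unadjusted p under 0.05. Over the whole array 15.3% of probe sets fell then. By probe set, 4 of 52 tested fell and 0 rose (7.69%, against 15.9% of all 18625, of which 6.45% fell and 9.4% rose). The 4 became 1 without couple 2 and 2 without couple 1 or couple 3, were 1 without the intensity trend of the variance or without the filter, and were 17 with median centring. The median log2 fold change of the 45 genes was −0.038, and that of all genes −0.002. Of the 45, 33 lay below 0, against 4989 of the 9910 genes. The 38 bright members had a median of −0.035, with 27 below 0. Over the 220 other genes with a mean log2 signal of at least 13 it was −0.035 too, with 140 below 0.

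Among genes with an Rpl symbol 3 of 30 tested fell (10%, against 7.77% of all genes called lower), with a median log2 fold change of −0.034. The 3 include Rpl7l1, which takes part in assembly of the large subunit and was counted by its symbol. Among those with an Rps symbol 0 of 15 passed in limma, 1 was lower at an unadjusted p under 0.05, and the median was −0.044. Changes over the 45 genes ran from −0.72 to 0.07, and the middle 50% of them from −0.08 to 0.00, against −0.14 to 0.18 for all genes. For the 38 bright members the middle 50% ran from −0.07 to 0.01, and for the 220 other genes as bright from −0.12 to 0.06.

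The bright members had narrow intervals, on signals near the top of the array's scale. Their highest signal was 24821 where the highest of any probe set was 26029 (vehicle, couple 1), and 31366 against 35798 (vehicle, couple 3). Whether signals this high understate changes in transcript amount was not tested, so the intervals are those of the measured signal and do not bound the change in transcripts. For each of the 38 bright genes the 95% interval of the fold change, taken gene by gene, lay within 1.25-fold of no change. Of 220 other genes as bright, 194 had such an interval (88.2%), 30 were called (13.6%), and of all genes 35.4% had such an interval. Of the 38 bright members 1 was called. The count of 38 was 35 without the couple as a term, 33 without the intensity trend, 35 with each array centred on its median, and 37 without couple 2 or couple 3.

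**Figure D1:**
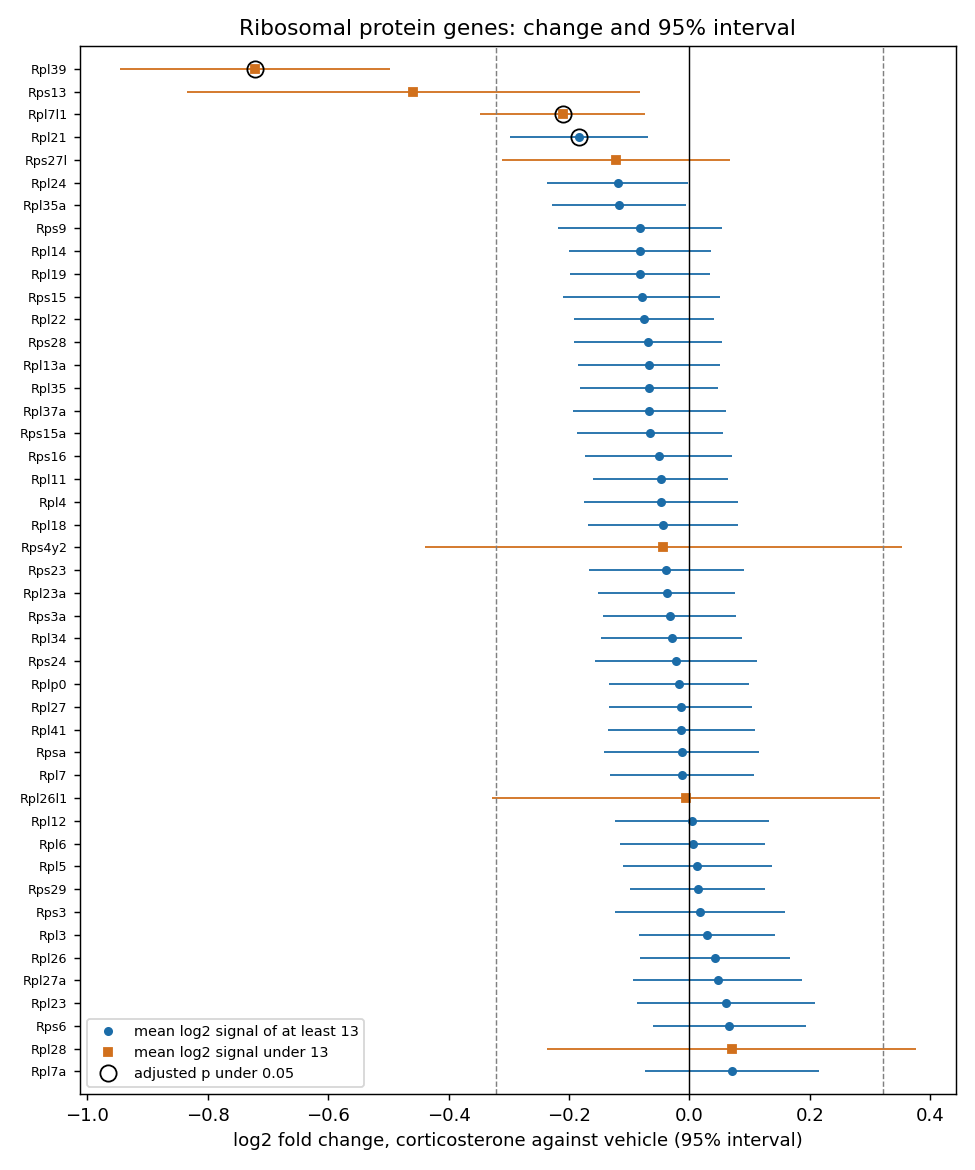
The log2 fold change of corticosterone against vehicle (x axis) is plotted for the 45 ribosomal protein genes tested (rows), with bars for the limma 95% interval, blue circles for the 38 bright genes, orange squares for the 7 dimmer ones, open rings for genes past the threshold and dashed lines at 1.25-fold. Rpl39 at −0.72 stands at the left end, while the bright genes lie between the dashed lines.

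Neither Rplp0 nor Rps6 passed the test. Rplp0, the stalk gene among the members, encodes the P0 protein, the base of the stalk that recruits elongation factors. Its signals were 17078, 19212 and 18669 with vehicle and 17099, 18179 and 19006 with corticosterone, and the log2 fold change was −0.02 (95% interval −0.13 to 0.10, limma adjusted p = 0.86). The groups overlapped. Rps6 encodes the small-subunit protein that S6 kinases phosphorylate. Its signals were 18449, 18430 and 20538 with vehicle and 20565, 19807 and 19667 with corticosterone, and the log2 fold change was 0.07 (interval −0.06 to 0.19), and −0.04 with median centring. The groups overlapped here too, with couples 1 and 2 higher and couple 3 lower under the hormone.

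Rpsa, a small-subunit protein also known as the laminin receptor precursor, was measured by 3 probe sets. The brightest had signals of 14460, 15387 and 15164 with vehicle and 15581, 14193 and 14845 with corticosterone, and the log2 fold change was −0.01 (95% interval −0.14 to 0.12), which was 0.02 with quantile normalization. The others gave −0.01 and −0.07, and none of the 3 passed (limma adjusted p of 0.51 to 0.92). The last of these is of the _x_at type, whose probes can also bind other sequences.

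The largest fall among the members was that of Rpl39, which encodes a small protein at the wall of the large subunit's exit tunnel. Its signals were 610, 870 and 991 with vehicle and 338, 610 and 528 with corticosterone, a mean of 824 ± 194 (SD, n = 3 arrays per group) against 492 ± 140. The groups met at 610, where the lowest vehicle and the highest corticosterone signal came together without overlap, and each couple was lower under the hormone. The log2 fold changes within couples 1, 2 and 3 were −0.80, −0.49 and −0.87, and the fitted one was −0.72 ± 0.10 (SE; 95% interval −0.95 to −0.50, limma adjusted p = 7.7e-04). On the scale of signal plus 28.6, the pseudocount added before taking logs, that is 39.4% lower. Without the couple as a term the adjusted p was 0.17, and the fold change without 1 of the couples ran from −0.84 to −0.65. A single probe set measured Rpl39, so no second one could be set beside it. It was far dimmer than those of the 38 bright members, whose signals were 12861 or more on every array. Whether it reports the main transcript of the gene was not tested. Of the 7 dimmer members 2 were called (28.6%), and of the 38 bright ones 1 (2.63%), against 19.5% of all genes.

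Rpl7l1, a paralogue of Rpl7 that takes part in assembly of the large subunit, was lower with both of its probe sets. The brighter gave 3290, 3290 and 3354 with vehicle and 2793, 2897 and 2882 with corticosterone. No corticosterone array reached the lowest vehicle array. The log2 fold change was −0.21 ± 0.06 (SE; limma adjusted p = 0.041), and the call ended without the couple term (0.23), without any 1 of the couples (0.11 to 0.15), without the trend (0.19), without the filter (0.073) and with quantile normalization (0.084). The second probe set had 3228, 2869 and 2801 with vehicle and 2694, 2184 and 2681 with corticosterone, did not overlap between groups either, and had a log2 fold change of −0.24 (adjusted p = 0.054). It passed without couple 3 (−0.32, 0.026) and with median centring (−0.34, 0.016), under which the brighter one was at −0.32 (0.0096).

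Rpl7 itself differed by −0.01 (95% interval −0.13 to 0.11), with signals of 17358, 19242 and 19912 with vehicle and 18363, 18400 and 19182 with corticosterone. Its second, dimmer probe set gave 0.06 (−0.20 to 0.31). The difference between Rpl7 and its paralogue was not tested.

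Rpl21, a large-subunit protein, fell by a small amount in each couple. Its signals were 14460, 14984 and 17219 with vehicle and 12861, 12949 and 15276 with corticosterone, so the groups overlapped while the differences within couples were −0.17, −0.21 and −0.17. The log2 fold change was −0.18 ± 0.05 (SE; limma adjusted p = 0.035). It was 0.41 without the couple as a term, 0.22 and 0.11 without couple 2 and couple 3, 0.23 without the trend, 0.12 without the filter and 0.051 with quantile normalization. With median centring the fold change was −0.29 (0.0045).

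Rps24, a small-subunit protein, had probe sets that disagreed. The brighter gave 19676, 22253 and 24847 with vehicle and 21764, 20526 and 23247 with corticosterone, and the log2 fold change was −0.02 (95% interval −0.16 to 0.11, limma adjusted p = 0.85). The dimmer gave 593, 630 and 604 with vehicle and 455, 499 and 462 with corticosterone, without overlap, and fell by −0.35 ± 0.09 (SE; adjusted p = 0.028). That call ended without the couple term (0.16), without any 1 of the couples (0.074 to 0.13), without the trend (0.069) and without the filter (0.052). Which transcript forms the probe sets match is not given in the sources used here.

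**Figure D2:**
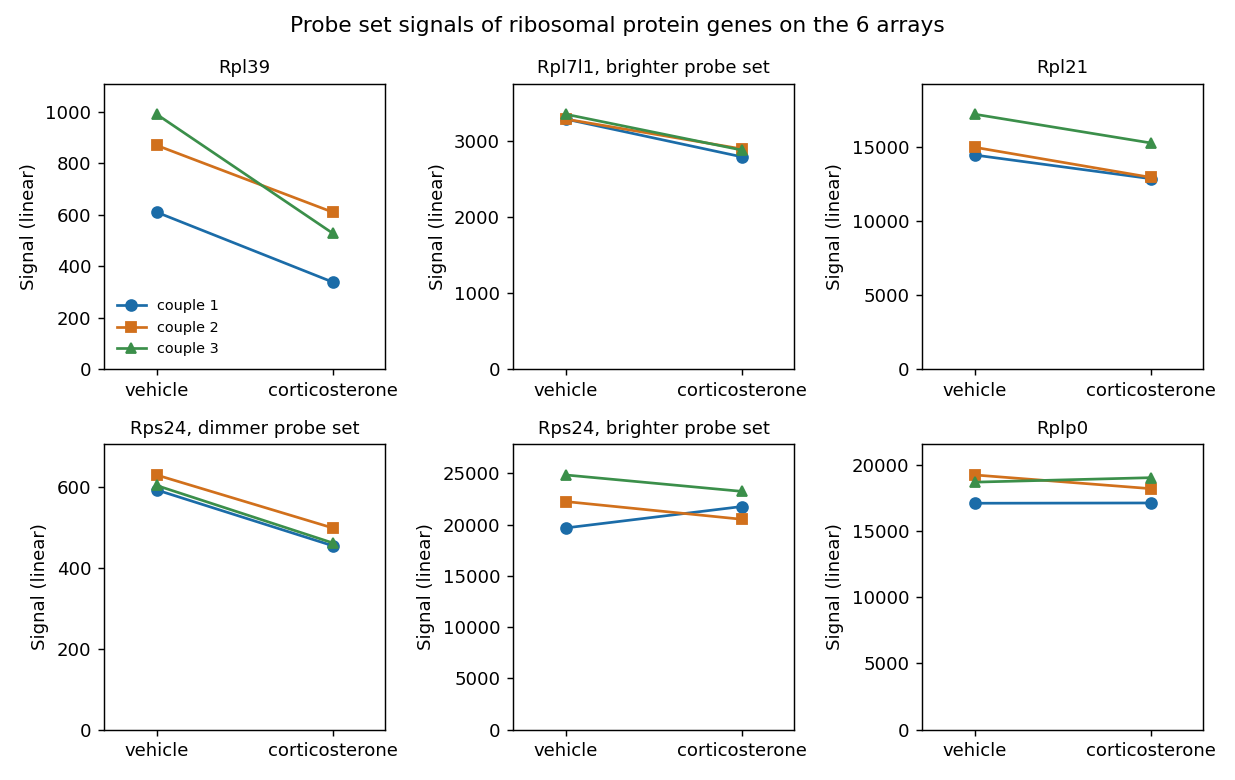
Linear signals (y axis, from 0) of 6 probe sets on the vehicle and corticosterone arrays, with a line for each of the 3 couples. Rpl39, Rpl7l1, Rpl21 and the dimmer Rps24 probe set are lower under corticosterone in all 3 couples, while the brighter Rps24 probe set and Rplp0 move in both directions.

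Rps13 was measured by 1 dim probe set of its own. Its signals were 146, 154 and 135 with vehicle and 76.4, 120 and 101 with corticosterone, which did not overlap, yet its log2 fold change of −0.46 had a wide interval (−0.83 to −0.08) and did not pass (limma adjusted p = 0.096). It passed with quantile normalization and with median centring (0.049 and 0.038). Among the 45 genes, 3 had every corticosterone signal under every vehicle signal, namely Rpl39, Rpl7l1 and Rps13, and 0 the reverse. Over all genes 11.4% and 14.8% did.

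The other paralogues on the array did not pass with the deposited scaling. Rps27l, a p53-induced paralogue of Rps27, had signals of 1090, 1310 and 1682 with vehicle and 1161, 1136 and 1406 with corticosterone, and the log2 fold change was −0.12 (95% interval −0.31 to 0.07, limma adjusted p = 0.39), which ran from −0.23 to −0.06 without 1 of the couples and was −0.23 with median centring. Rpl26l1, a paralogue of Rpl26, gave −0.01 (−0.33 to 0.32) with signals from 164 to 199, and Rpl26 0.04 (−0.08 to 0.17), which was −0.06 with median centring. Rps4y2 gave −0.04 (−0.44 to 0.35). For Rps4y2 and Rpl26l1, both measured by dim probe sets, the intervals were wide, and changes of the sizes within them are not excluded. Rpl22 gave −0.08 (−0.19 to 0.04), and passed with median centring (−0.18, limma adjusted p = 0.029). Rpl3 gave 0.03 (−0.08 to 0.14), and −0.08 with median centring.

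Of the remaining bright genes, Rps29, Rps23 and Rpl7a had log2 fold changes of 0.01, −0.04 and 0.07 with intervals between −0.17 and 0.22. Rps29 and Rpl7a were −0.09 and −0.04 with median centring. Rpl28, at the dim end, gave 0.07 (−0.24 to 0.38). Among the 30 probe sets with several ribosomal protein symbols 3 fell, 0 rose and 27 did not pass, with a median log2 fold change of −0.058.

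The direction of the small changes differed between couples. In couple 1 the median log2 difference over the 45 genes was 0.063, with 28 genes above 0 and 17 below. In couples 2 and 3 it was −0.081 and −0.087, with 37 and 40 genes below 0. No gene was higher in each of the 3 couples (0 of 45, against 27.7% of all genes), and 13 of 45 were lower in each, against 27.2% of all genes. All 15 small-subunit genes were below 0 in couple 3, and 11 of 15 above 0 in couple 1.

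Ribosomal protein signals also differed between couples within a treatment. From the vehicle array of couple 1 to that of couple 3 the median log2 difference of the 45 genes was 0.22, with 41 genes higher, while that over all genes was 0.02. From couple 1 to couple 2 it was 0.10 and from couple 2 to couple 3 0.12. Between the corticosterone arrays the medians were −0.01, 0.10 and 0.11. The top of the scale also shifted on the vehicle arrays. The brightest probe set reached 26029 in couple 1, 33140 in couple 2 and 35798 in couple 3. Among bright genes outside the set, Vim went from 20453 to 29189 and Fabp7 from 20415 to 23779 between couples 1 and 3. Sox2, less bright, went from 9658 to 8910. Whether the rise was particular to ribosomal protein genes or shared by other genes as bright was not tested. What separates the couples is not given in the sources used here, and its part in the direction of the changes was not tested.

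**Figure D3:**
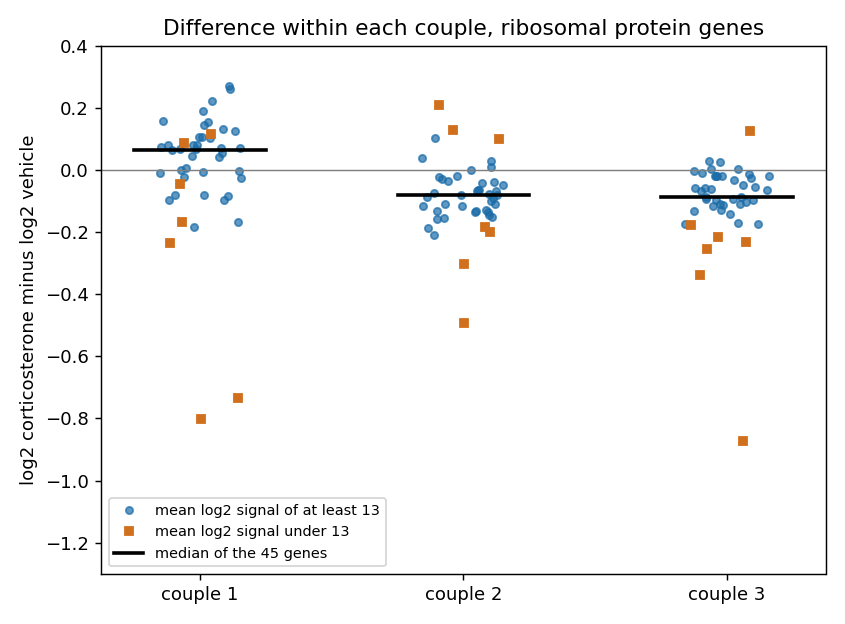
The log2 difference of corticosterone minus vehicle (y axis) within each of the 3 couples (x axis) for the 45 ribosomal protein genes, as circles for bright and squares for dimmer genes, with a line at the median. The median is 0.063 in couple 1, −0.081 in couple 2 and −0.087 in couple 3.

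Genes that work with the ribosome were taken from lists for elongation, initiation, TOP-associated transcripts, signalling and quality control. Over these lists together 2 of 86 tested genes rose, 11 fell and 73 did not pass (15.1%, against 19.5% of all genes), with a median log2 fold change of −0.093. The count of 13 was 1 without the couple as a term, 6 without couple 2, 4 without the trend and 7 without the filter. With median centring it was 36, of which 34 fell, while over the whole array 15.3% of probe sets fell then. Rack1, a scaffold protein on the small subunit and so a ribosomal protein under another symbol, had signals of 14615, 15938 and 16229 with vehicle and 15126, 14954 and 16147 with corticosterone, and the log2 fold change was −0.02 (95% interval −0.14 to 0.10). Its groups overlapped, as did those of the bright members.

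Of 8 elongation genes 1 fell. Eef1a1, which delivers aminoacyl-tRNA, and Eef2, which drives translocation, gave −0.01 (95% interval −0.12 to 0.10) and −0.00 (−0.13 to 0.12), and Eef2 0.04 with quantile normalization. The gene that fell was Eef1e1, a part of the multi-tRNA-synthetase complex, with signals of 4809, 3372 and 3697 with vehicle and 3559, 2360 and 2613 with corticosterone (−0.48, limma adjusted p = 4.6e-04, and 0.22 without the couple as a term).

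Of 49 genes with an Eif symbol 1 rose and 5 fell (median −0.099). Those with the largest falls were Eif4ebp1, a translation repressor that mTOR phosphorylates, at −0.34 (limma adjusted p = 0.0068), the cap-binding protein transporter Eif4enif1 at −0.34 (0.039) and the scaffold subunit Eif3b at −0.23 (0.03). The kinase Eif2ak2, known as PKR, rose by 0.50 (0.017). Without the couple as a term none of these 4 passed (0.14 to 0.29), and without couple 2 Eif4enif1, Eif3b and Eif2ak2 did not (0.15 to 0.17). Eif4enif1 and Eif2ak2 did not pass without couple 1 (0.28 and 0.065), nor Eif3b without couple 3 (0.15).

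Of 6 TOP-associated genes 2 fell, Gas5, a non-coding host of small nucleolar RNAs, by −0.36 (limma adjusted p = 0.0023) and the histone chaperone Nap1l1 by −0.21 (0.032). Gas5 was at 4764, 4208 and 5243 with vehicle and 3788, 3143 and 4163 with corticosterone. The groups did not overlap. Without the couple as a term neither passed (0.2 and 0.23), and Nap1l1 did not without couple 2 or couple 3 (0.2 and 0.11). None of 6 genes of ribosome quality control passed in limma, with 1 lower at an unadjusted p under 0.05.

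Of 19 genes for signalling to the ribosome 1 rose and 4 fell. Myc, a transcription factor that drives ribosome production, had signals of 2699, 2004 and 2176 with vehicle and 1492, 939 and 1445 with corticosterone, and the log2 fold change was −0.83 (limma adjusted p = 1.6e-04, and 0.061 without the couple as a term). Its partner Max fell by −0.37 (0.0039), and so did the stress-induced mTORC1 inhibitor Sesn2 (−0.41, 0.012). Ddit4, which inhibits mTOR, had 454, 466 and 545 with vehicle and 1232, 2001 and 1582 with corticosterone, a rise of 1.64 (1.6e-05). Without the couple as a term Max and Sesn2 did not pass (0.087 and 0.3), nor without couple 2 (0.051 and 0.054), nor Sesn2 without couple 1 (0.065). Of the partner genes named, Eif4ebp1, Eif4enif1, Eif3b, Gas5, Nap1l1, Max and Sesn2 lost their call without the intensity trend (limma adjusted p of 0.06 to 0.2), and Eif2ak2, Eif3b, Eif4enif1 and Nap1l1 without the filter (0.054 to 0.097). Eif3b did not pass with quantile normalization (0.057). Ddit4 passed under each alternative run.

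Most of the genes for assembling the ribosome fell. Of 63 ribosome biogenesis genes tested 39 fell, 0 rose and 24 did not pass. Thus 61.9% were called, against 19.5% of all genes (7.77% lower) and 6.67% of ribosomal protein genes. In each of the 3 couples 56 of the 63 were lower, as were 27.2% of all genes. The median log2 fold change of the 63 was −0.286, with medians of −0.258, −0.359 and −0.222 in couples 1, 2 and 3. The list was chosen with earlier results of these data known, so its share of falls is a description and not a test. Rrs1, needed for large-subunit assembly, had signals of 2435, 2157 and 2297 with vehicle and 1494, 1431 and 1582 with corticosterone, and the log2 fold change was −0.60 ± 0.07 (SE; limma adjusted p = 2.5e-04). Heatr1 and Rrp12, both of ribosomal RNA processing, fell by −0.60 (0.0015) and −0.56 (0.0036). The count of 39 was 2 without the couple as a term, 4 without the trend, 24 without the filter, 22 without couple 1 and 8 without couple 2. Rrp12 was among those lost without couple 2 (0.056), without the trend (0.055) and without the couple term (0.052).

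Few of the genes for mitochondrial ribosomal proteins, which form the separate ribosome of that organelle, passed. Of 73 tested 4 fell, 0 rose and 69 did not pass (5.48%, against 19.5% of all genes called and 7.77% called lower), with a median log2 fold change of −0.075. Mrps33 fell from 4443, 2807 and 3045 to 2963, 1876 and 2343 in couples 1, 2 and 3 (−0.51, limma adjusted p = 6.0e-04), and Mrps27 and Mrps18b by −0.32 (0.021) and −0.26 (0.026). None of the 73 passed without the couple as a term in limma, with 3 at an unadjusted p under 0.05, and 1 and 2 did without couple 1 and couple 2. With median centring 18 of the 73 fell, while over the whole array 15.3% of probe sets fell then. Mrps27 and Mrps18b did not pass without couple 1 (0.052 and 0.11), without couple 2 (0.17 and 0.17) or without the trend (0.099 and 0.14), nor Mrps33 without the couple term (0.26). The difference between these lists was not tested.

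**Figure D4:**
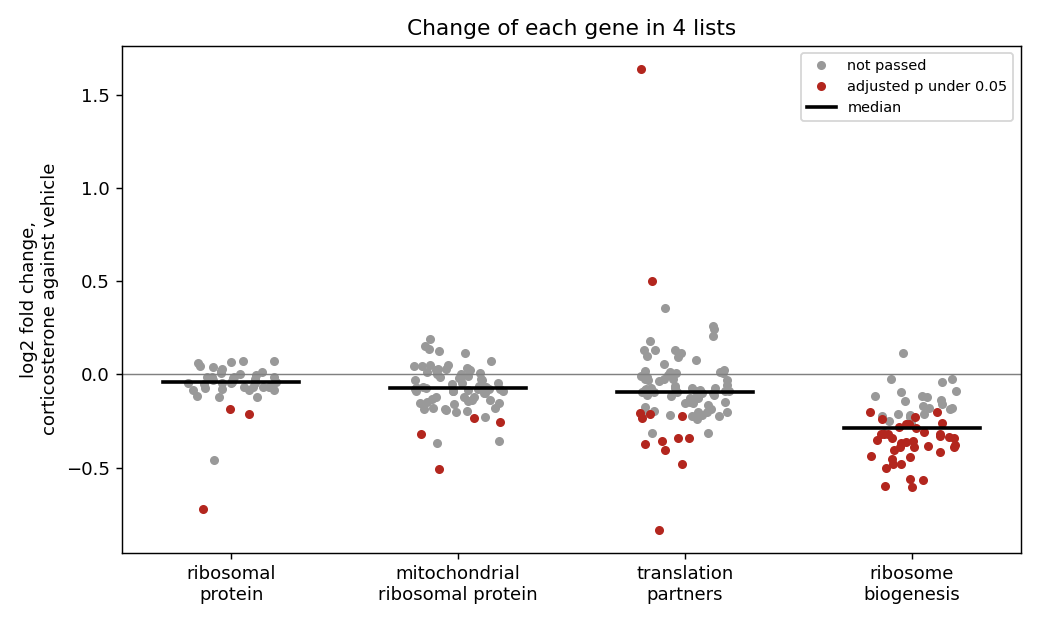
The log2 fold change of each gene (y axis) in 4 lists, with red points for genes past the threshold, grey points for the others and a line at the median. Medians are −0.038 for ribosomal proteins, −0.075 for mitochondrial ribosomal proteins, −0.093 for translation partners and −0.286 for ribosome biogenesis.

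Changes as small as those of the ribosomal proteins depend on the scaling of the arrays. The deposited signals share a trimmed mean of 500.2 on each array, while the array medians ran from 108 to 122 with vehicle and from 124 to 134 with corticosterone. When each array was centred on its median, the median log2 fold change moved to −0.109 over all genes and to −0.145 over the members. The 17 of 52 member probe sets that fell then stand against 15.3% of all probe sets. With quantile normalization 2 member genes fell and the median was −0.046.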

How the data were processed

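The authors deposited 1 linear intensity for each probe set, the MAS5 signal per the submitters' processing notes, with version and settings not given in the sources used here. Signals were transformed to log2(signal + 28.6), the pseudocount being the 25th percentile of all values, so fold changes of dim genes are understated. The 57 control probe sets and then the dimmest 40% (mean signal under 63.6) were left out, and 18625 were fitted with limma 3.58.1 in R 4.3.3 (couple and treatment, intensity trend), with two-sided Benjamini-Hochberg adjusted p-values over all of them. The script was tested on simulated data. Couples come from the series design text and the titles. Deviations from group means correlated by 0.569, 0.518 and 0.353 between same-numbered samples. Named genes were the members past the threshold, stalk and paralogue genes, Rpsa, Rps6, the 5 brightest and dimmest, members with mixed calls, and per list the 3 largest changes in each direction among genes past the threshold, with a few fixed partner genes. Members and lists were chosen with earlier results of these data known. Of the 55 member probe sets 53 had their Entrez identifier in the NCBI table of GRCr8.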

Additional observations from a re-analysis of the deposited data

How the results depend on the processing

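The count of ribosomal protein genes past the threshold (3) was 0 without the replicate block, 1 without the filter, 1 without the intensity trend, 15 with median centring and 1 to 2 without 1 of the couples. By probe set the 4 became 0, 1, 1 and 17, and 1 to 2. Of the 17 called with median centring 4 were among the original calls, and of the 2 without couple 3 it was 1. All these calls were falls. Other alternatives were added after seeing the data: with probe sets of several ribosomal protein symbols the 4 of 52 became 7 of 82, and without the 7 dim genes 1 gene passed. The member median of −0.038 was −0.145 with median centring and −0.067 to −0.018 without 1 of the couples. Of 18625 probe sets the 2953 past the threshold became 417 without the replicate block, 1862 without the filter, 1262 without the trend and 1192 to 2807 without 1 of the couples. In the same order the 39 biogenesis genes became 2, 24, 4 and 8 to 30, and the 13 partner genes 1, 7, 4 and 6 to 12, and 36 with median centring. The 4 mitochondrial genes became 0 without the block, 1 without the trend, 18 with median centring and 1 to 5 without 1 of the couples. With median centring 15.3% of all probe sets fell. Signs that turned were all of genes that did not pass. With median centring Rpl26 was at −0.06, Rpl28 −0.04, Rpl3 −0.08, Rpl7a −0.04, Rps29 −0.09 and Rps6 −0.04. With quantile normalization Rpl28 was at −0.01, Rps29 −0.02, Rpsa 0.02, Eef2 0.04 and Rack1 0.00. Without 1 of the couples Eef2 ran from −0.05 to 0.02, Rack1 −0.05 to 0.02, Rpl26 −0.02 to 0.09, Rpl26l1 −0.07 to 0.11, Rpl7 −0.06 to 0.01, Rpl7a −0.03 to 0.12, Rplp0 −0.04 to 0.01, Rps23 −0.11 to 0.01, Rps24 −0.11 to 0.02, Rps29 −0.02 to 0.04, Rps4y2 −0.17 to 0.02 and Rpsa −0.07 to 0.04. The pseudocounts of 1 and 100 and the stricter filter left the member calls as they were. Where a value moved, the cause was not tested. The 3 arrays per group limit the precision.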
